A study of Homo sapiens with 6 samples.

Results

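The genes described here are 56 enzymes and enzyme subunits that modify transfer RNA (tRNA), chosen by gene symbol and grouped by the chemistry of the modification: methylation (18 genes), pseudouridine (6), dihydrouridine (4), deamination (3), the threonylcarbamoyl adenosine t6A (5), wybutosine (5), queuosine (2), mitochondrial modifications (6) and other chemistries (7). All 56 were found among the 20289 genes of the deposited table. Their mRNA was sequenced in the human colorectal carcinoma line RKO, carrying a short hairpin RNA against TRMT6 (shTRMT6, 3 libraries) or a control hairpin (shControl, 3 libraries). TRMT6 is the non-catalytic subunit of the enzyme that places 1-methyladenosine on tRNA, and it is not among the 56. None of the sources used here gives the hairpin sequences or says whether more than 1 hairpin or clone was used. The labels do not say that the 3 libraries of a group are separate cultures; the p-values then cover library-to-library spread alone, and this may be technical.

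tRNAs carry more modified nucleosides than any other RNA. Modifications in the anticodon loop tune decoding, and those in the body of the molecule hold its fold and protect it from decay. Many of the enzymes work as pairs of a catalytic and a partner subunit, so a change in one mRNA can leave the other subunit in a different ratio. Since the measurement is of mRNA in bulk, it says nothing of the modifications themselves, and fewer cells expressing a gene and less RNA per cell cannot be told apart.

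Promoter sequences are shown for 4 genes. TRMT11 and ADAT3 had the highest and the lowest change of the list on the log2(FPKM + 1) scale. METTL2A and METTL2B are near copies of each other. The sequences are from RefSeq (GRCh38.p14), which held a window for 48 of the 56 genes; NSUN2, METTL1, TRMT2A, PUS1, TRMT12, TYW3, MTO1 and TRIT1 had none. The 250 bases before the start of TRMT11 (chr6:125986290-125986539, plus strand) hold the core of the ETS factor motif, searched as CCGGAAG and CTTCCGG for both strands and shown in capitals.
TRMT11: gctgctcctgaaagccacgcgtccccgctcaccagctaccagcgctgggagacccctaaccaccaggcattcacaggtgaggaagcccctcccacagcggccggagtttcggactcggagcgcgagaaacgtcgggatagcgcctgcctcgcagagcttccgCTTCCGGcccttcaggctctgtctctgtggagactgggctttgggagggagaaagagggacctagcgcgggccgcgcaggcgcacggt
This motif was present in 14 of the 48 windows (29.2%), against 21.0% of the windows of 8670 genes tested in the study. Whether it goes with the fold change was not tested. The window of ADAT3 (chr19:1905149-1905398, plus strand) is the same, base for base, as that of SCAMP4, a secretory carrier membrane protein gene, so both genes are annotated with 1 start. No base of it is marked.
ADAT3: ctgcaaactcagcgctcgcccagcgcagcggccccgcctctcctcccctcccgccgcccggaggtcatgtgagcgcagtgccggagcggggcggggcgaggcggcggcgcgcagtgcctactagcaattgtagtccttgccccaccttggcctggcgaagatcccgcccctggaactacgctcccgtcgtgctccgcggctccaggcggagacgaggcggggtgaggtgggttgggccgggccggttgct
The windows of METTL2A (chr17:62423647-62423884) and METTL2B (chr7:128476510-128476747), both on the plus strand, were identical at 228 of 238 aligned bases (95.8%), and capitals mark the 10 bases that differ.
METTL2A: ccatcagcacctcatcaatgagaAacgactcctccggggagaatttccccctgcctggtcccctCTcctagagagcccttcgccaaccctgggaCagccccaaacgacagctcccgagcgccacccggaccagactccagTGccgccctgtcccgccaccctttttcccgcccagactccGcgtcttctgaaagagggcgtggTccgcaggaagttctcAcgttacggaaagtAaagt
METTL2B: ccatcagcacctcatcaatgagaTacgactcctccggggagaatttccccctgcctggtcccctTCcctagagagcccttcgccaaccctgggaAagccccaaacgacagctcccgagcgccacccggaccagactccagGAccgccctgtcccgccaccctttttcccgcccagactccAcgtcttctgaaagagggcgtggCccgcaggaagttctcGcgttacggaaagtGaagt

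Levels are given in FPKM (fragments scaled by transcript length and library size), as the authors deposited them. TRMT6 had 1.58, 1.73 and 1.09 FPKM in shTRMT6, against 14.43, 17.96 and 16.85 FPKM in shControl. Depth estimated from the steps between low values was roughly 18100000 to 20150000 fragments in shTRMT6 and 20400000 to 28700000 fragments in shControl. Of the epithelial markers that define the line's origin, EPCAM, KRT8, KRT18 and CDX2 were above 1 FPKM in every library, LGALS4 reached at most 0.08 FPKM, and KRT19, CDH1 and VIL1 were listed at 0 in all 6. The 8 epithelial markers summed to 200.99 to 213.63 FPKM in shTRMT6 and 123.71 to 156.07 FPKM in shControl. Of these, KRT18 (log2 fold change 0.66, limma adjusted p = 0.00053) and EPCAM (0.50, 0.0282) rose, while KRT8 (0.07) and CDX2 (-0.05) did not pass; their part in the results below was not tested. The 6 fibroblast markers summed to 0.03 to 0.11 FPKM in shTRMT6 libraries and 0.1 to 1.38 FPKM in shControl libraries. The highest sum was in shControl replicate 3, where COL1A1 had 0.65 FPKM. The 5 endothelial markers summed to 0.02 to 0.09 FPKM in shTRMT6 and 0.01 to 0.17 FPKM in shControl. Of the 6 immune markers, 5 summed to 0.22 to 0.4 FPKM in shTRMT6 and 0.05 to 0.18 FPKM in shControl. The sixth, CD68, a lysosomal protein gene, had 738.42 to 996.37 FPKM in shTRMT6 and 676.97 to 810.46 FPKM in shControl. shControl replicate 1 stood apart by base composition: per 10 points of transcript GC content, its deviation from the mean of all libraries rose by 0.22 on the log2 scale, against -0.153 to -0.0248 in the 3 shTRMT6 libraries and -0.00462 and 0.0337 in the other two shControl libraries.

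More enzymes of the list were higher than lower in shTRMT6, and by small amounts. Of the 55 that reached a mean of 1 FPKM and were tested, 21 rose, 5 fell and 29 did not pass (limma on log2(FPKM + 1), Benjamini-Hochberg adjusted p under 0.05 over all genes tested). Among all 10592 genes tested, 19.3% rose and 16.1% fell, 35.4% together, against 38.2% and 9.09% of these enzymes. The median log2 fold change was 0.23 (1.17-fold) over the 55 and 0.02 over all tested genes, and single enzymes ran from -0.80 to 0.84. The groups did not overlap for 32 of the 55, against 48.3% of all genes tested: 24 were higher in every shTRMT6 library, against 26.2% of all genes tested, and 8 lower, against 22.1%. With the replicate number as a block, 22 rose and 6 fell, against 25.5% and 21.3% of all genes tested. Under 16 alternative settings, 9 of the 21 that rose passed in each setting in which they were tested: TRMT11, TRMO, TRUB1, TRUB2, DUS4L, MTO1, METTL8, THUMPD1 and THG1L. The same held for WDR4, ADAT3 and OSGEP among the 5 that fell. Without shControl replicate 1, 16 enzymes rose and 6 fell (median 0.18), against 17.8% and 16.3% of all genes tested. Without shTRMT6 replicate 1 it was 12 and 3, against 12.3% and 11.0%, and without shTRMT6 replicate 2 it was 13 and 4, against 12.2% and 10.5%, so fewer genes passed over the whole table as well.

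**Figure D1:**
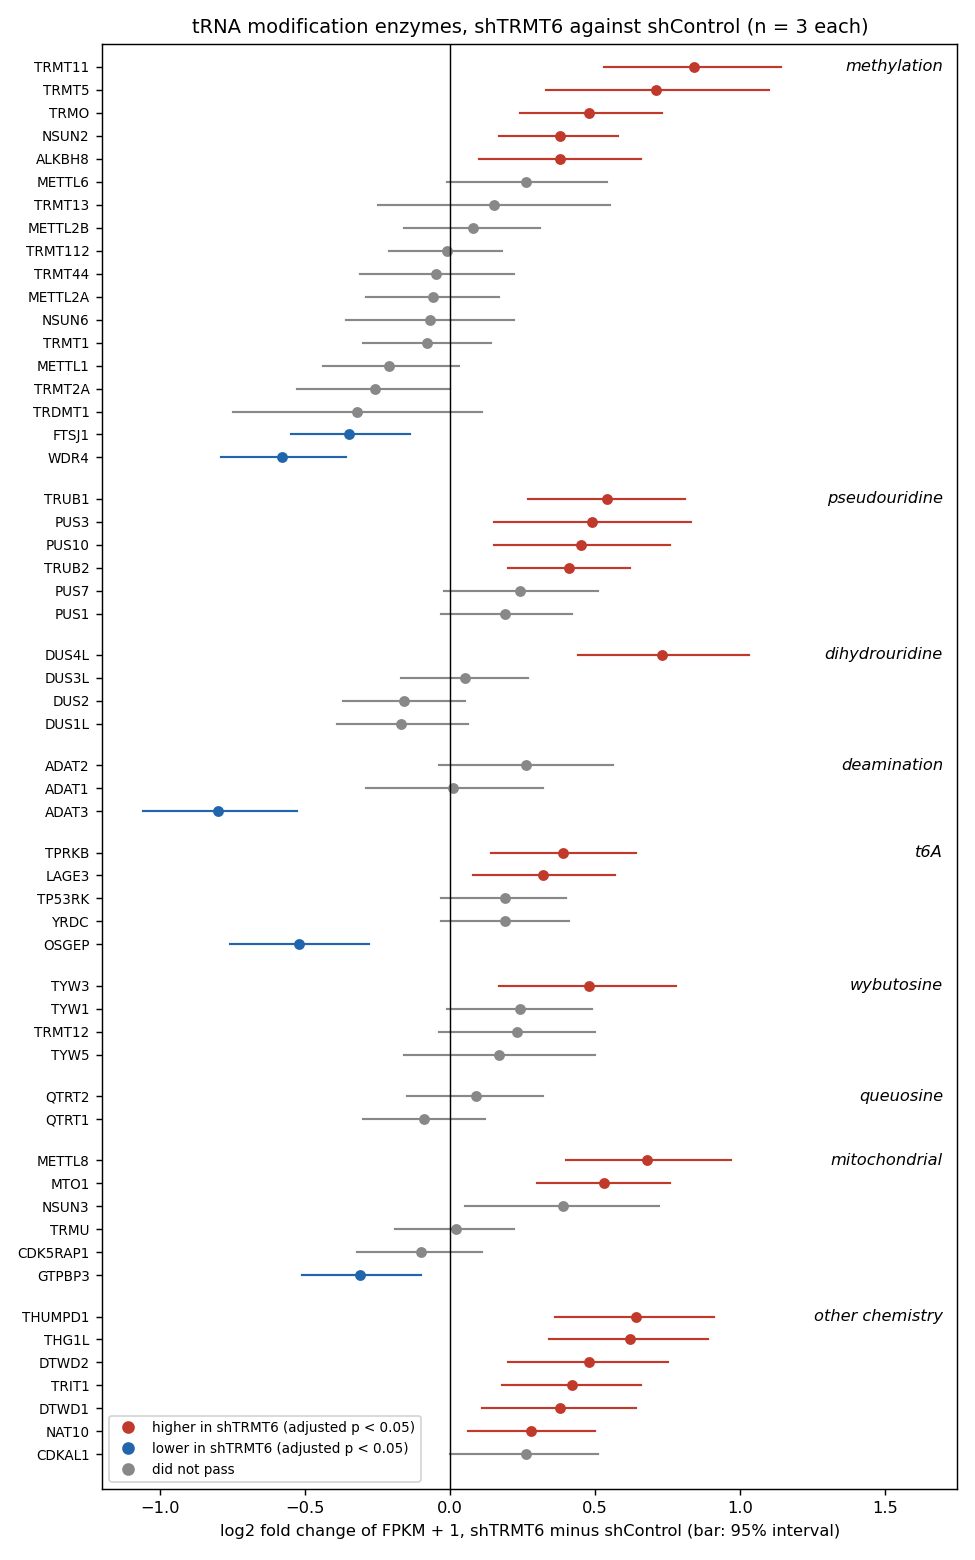
Log2 fold change (shTRMT6 minus shControl, horizontal axis) of the 55 tested enzymes by class of chemistry; points are limma estimates, bars their 95% intervals, and colour marks the call. TRMT11 stands highest at 0.84 and ADAT3 lowest at -0.80.

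Among the 18 genes of methylation, 5 rose, 2 fell and 11 did not pass, and their median log2 fold change was -0.03. Of all genes tested, 19.3% rose and 16.1% fell. TRMT11 is the catalytic subunit of the enzyme that methylates guanosine in the body of tRNA. It had 16.58, 19.70 and 15.31 FPKM in shTRMT6, against 7.23, 10.23 and 10.30 FPKM in shControl. All 3 shTRMT6 libraries were above the shControl libraries, and the log2 fold change was 0.84 (SE 0.14, 1.86-fold, limma adjusted p = 0.0008). TRMT5 methylates the guanosine next to the anticodon, which guards the reading frame. It had 8.12, 11.68 and 9.21 FPKM in shTRMT6, against 3.90, 7.37 and 5.55 FPKM in shControl, without overlap (0.71, SE 0.18, 1.72-fold, limma adjusted p = 0.00804). TRMO, which methylates t6A further, had 6.05, 6.09 and 6.12 FPKM in shTRMT6, nearly the same in each library, and 3.69, 4.23 and 4.33 FPKM in shControl (0.48, SE 0.11, 1.49-fold, limma adjusted p = 0.00587). NSUN2, the main cytosine methyltransferase of tRNA, had 79.27, 79.34 and 69.05 FPKM in shTRMT6, against 56.63, 59.82 and 57.75 FPKM in shControl (0.38, SE 0.09, limma adjusted p = 0.00788). ALKBH8 methylates the side chain of the wobble uridine. It was low throughout, with 3.62, 3.90 and 3.62 FPKM in shTRMT6 and 2.25, 3.13 and 2.53 FPKM in shControl (0.38, SE 0.13, limma adjusted p = 0.034).

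The 2 genes of methylation that fell were WDR4 and FTSJ1. WDR4 is the non-catalytic partner of METTL1, which places 7-methylguanosine in the variable loop. WDR4 had 14.08, 12.59 and 12.81 FPKM in shTRMT6, against 20.87, 19.99 and 19.49 FPKM in shControl, with every shTRMT6 library below every shControl library (-0.58, SE 0.10, 1.53-fold lower, limma adjusted p = 0.000998). FTSJ1 methylates riboses in the anticodon loop and is a gene of X-linked intellectual disability. It had 33.08, 34.43 and 31.79 FPKM in shTRMT6, against 45.79, 41.33 and 40.13 FPKM in shControl (-0.35, SE 0.10, 1.28-fold lower, limma adjusted p = 0.0139). The call of NSUN2 ended without shTRMT6 replicate 1 (adjusted p = 0.0512), as did that of FTSJ1 (0.0563). That of ALKBH8 ended without any of the 3 shTRMT6 libraries in turn or without shControl replicate 1 or 3 (0.0603 to 0.108) and after a correction for GC content (0.237). Without a filter on low values the calls of ALKBH8 (0.066) and TRMT5 (0.0649) ended. Exons of SLC38A6, which rose (0.41, limma adjusted p = 0.0314), lie opposite 4.3% of the exonic bases of TRMT5.

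The other 11 methylation genes did not pass. TRMT112, a small activating partner of several methyltransferases including TRMT11, was the most abundant of the 55, at 202 ± 7.2 FPKM in shTRMT6 and 204 ± 14.9 FPKM in shControl (SD, n = 3 each); its log2 fold change was -0.01, with a 95% interval from -0.21 to 0.18. METTL1 averaged 17.3 ± 1.6 FPKM in shTRMT6 and 20.1 ± 1.79 FPKM in shControl, and 19.3% of its exonic bases lie opposite exons of EEF1AKMT3. Whether strand was used in counting is unknown here, so reads of opposite genes may not have been separated. METTL2A and METTL2B, which methylate cytidine of the anticodon loop, had log2 fold changes of -0.06 and 0.08. Of their 75-base transcript windows, 15.8% and 11.8% also occur in other genes, mostly in each other, so how fragments were divided between the pair is uncertain. TRDMT1, also known as DNMT2, methylates cytidine near the anticodon. It had 1.26, 1.63 and 2.09 FPKM in shTRMT6, against 1.28, 2.88 and 3.04 FPKM in shControl, with shControl replicate 1 inside the shTRMT6 range (-0.32, SE 0.20, limma adjusted p = 0.231). Without that library TRDMT1 was lower (-0.59, adjusted p = 0.0143), and the GC correction gave -0.59 as well (0.0255). TRMT2A, a uridine methyltransferase, passed only with the replicate number as a block (-0.26, adjusted p = 0.0393; 0.113 without it). The remaining 5, TRMT1, TRMT13, TRMT44, NSUN6 and METTL6, had log2 fold changes of -0.08, 0.15, -0.05, -0.07 and 0.26. With the replicate block and the GC correction together, NSUN6 (-0.29, adjusted p = 0.0294) and METTL2A (-0.20, 0.0379) were lower.

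**Figure D2:**
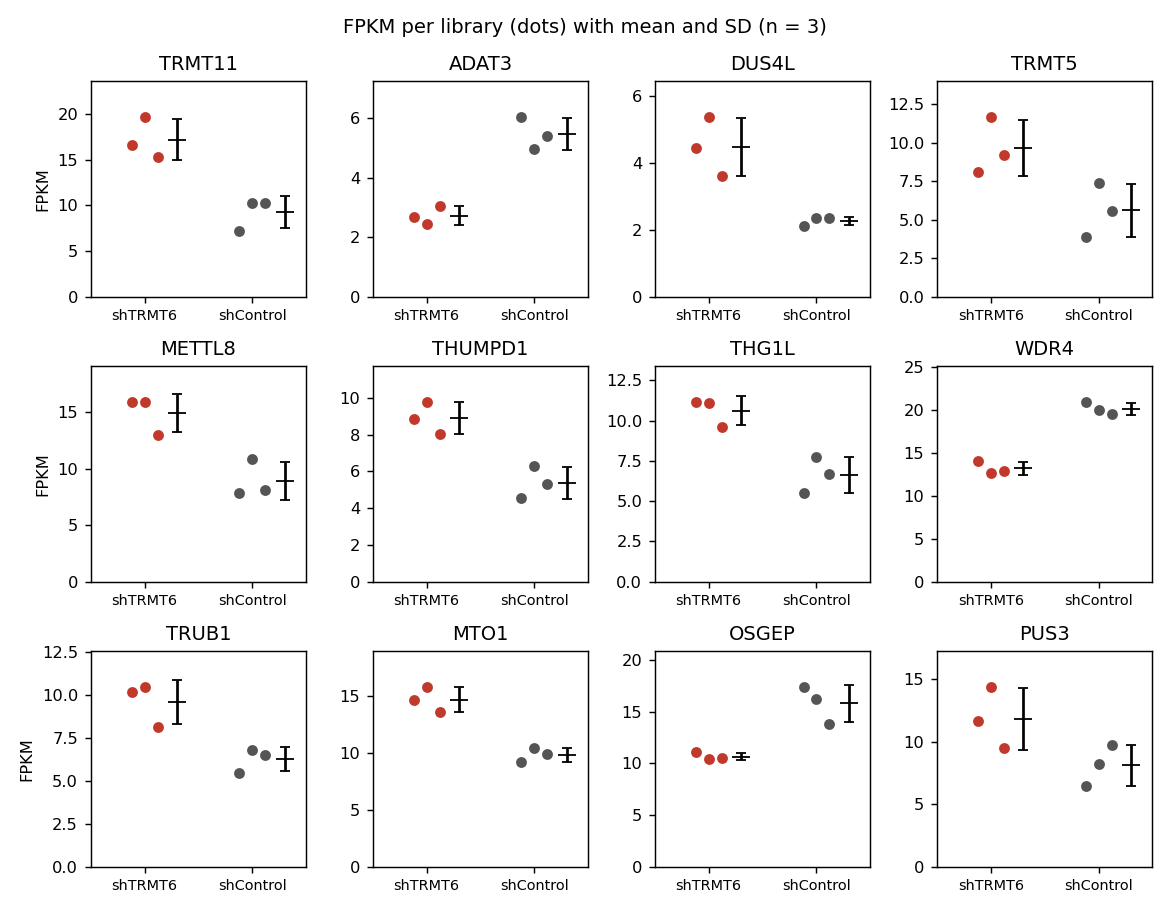
FPKM in each library (dots; shTRMT6 left, shControl right) of the 12 passing enzymes with the largest absolute log2 fold change, with mean and SD (n = 3 each) beside the dots. The groups are apart for 11 of the 12, and PUS3 is the one whose groups overlap.

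Pseudouridine synthases turn uridine into its carbon-linked isomer. All 6 had positive log2 fold changes, as had 5603 of all 10592 genes tested. Of the 6, 4 rose and none fell, against 19.3% and 16.1% of all genes tested. The median of the 6 was 0.43. Their median transcript GC content was 42.5%, and 33.2% of all genes tested under 45% GC rose. TRUB1, which acts on the T-loop uridine, had 10.15, 10.44 and 8.13 FPKM in shTRMT6, against 5.48, 6.80 and 6.48 FPKM in shControl (0.54, SE 0.13, 1.53-fold, limma adjusted p = 0.00555). Its mitochondrial relative TRUB2 had 32.39, 32.73 and 28.86 FPKM in shTRMT6, against 24.20, 23.11 and 22.64 FPKM in shControl (0.41, SE 0.10, 1.34-fold, limma adjusted p = 0.00631). In both, the groups were apart. PUS3, which acts next to the anticodon stem, had 11.61, 14.34 and 9.45 FPKM in shTRMT6 and 6.43, 8.24 and 9.70 FPKM in shControl; the groups overlapped by 1 library each (0.49, SE 0.16, limma adjusted p = 0.0291). PUS10 had 1.62, 1.66 and 1.72 FPKM in shTRMT6, against 0.72, 1.31 and 0.86 FPKM in shControl (0.45, SE 0.14, 1.73-fold, limma adjusted p = 0.025). PUS10 was the lowest of the rising enzymes, with an estimated 33 to 76 fragments per library, and exons of PEX13, which rose (0.65, limma adjusted p = 0.00189), lie opposite 3.8% of its exonic bases. The cytosolic and mitochondrial synthase PUS1 (0.19) and PUS7 (0.24) did not pass; PUS1 passed after the GC correction (0.34, adjusted p = 0.0106). The PUS3 call ended without shTRMT6 replicate 1 or 2 or shControl replicate 1 (adjusted p = 0.071, 0.131 and 0.102), after the GC correction (0.0768) and without a filter (0.116), and the PUS10 call without any library but shControl replicate 2 (0.06 to 0.0817) and after the GC correction (0.123).

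Dihydrouridine synthases reduce uridine of tRNA, and 1 of the 4 rose, against 19.3% of all genes tested. DUS4L had 4.43, 5.36 and 3.61 FPKM in shTRMT6, against 2.12, 2.34 and 2.33 FPKM in shControl, which was 1.97-fold higher and without overlap (0.73, SE 0.14, limma adjusted p = 0.00154). DUS1L, DUS2 and DUS3L, all more abundant, had log2 fold changes of -0.17, -0.16 and 0.05 and did not pass; after the GC correction DUS3L was higher (0.20, adjusted p = 0.0496). DUS4L starts head to head with COG5, a Golgi complex gene: their promoter windows of 300 bases overlap by 150 bases on opposite strands, and 10.2% of the exonic bases of DUS4L lie opposite COG5 exons. COG5 had 21.51, 30.63 and 20.79 FPKM in shTRMT6 and 16.23, 21.03 and 21.54 FPKM in shControl, which did not pass (0.29, SE 0.15, limma adjusted p = 0.151).

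Deamination turns adenosine into inosine, and ADAT3, the non-catalytic subunit of the wobble deaminase, had the lowest log2 fold change of the 55 enzymes. ADAT3 (ENSG00000213638) lies on the plus strand of chromosome 19, bases 1905378 to 1913447 in GENCODE release 29 (GRCh38), and had 2.66, 2.45 and 3.06 FPKM in shTRMT6, against 6.04, 4.95 and 5.41 FPKM in shControl. Its log2 fold change was -0.80 (SE 0.12, 2.01-fold lower, limma adjusted p = 0.000507). Of the exonic bases of ADAT3, 35.4% are also exonic in SCAMP4 on the same strand, and 27.0% of its 75-base windows occur in SCAMP4 transcripts. SCAMP4 was far more abundant and did not pass, at 45.75, 40.55 and 53.86 FPKM in shTRMT6 and 53.60, 43.79 and 54.57 FPKM in shControl (-0.12, SE 0.12, limma adjusted p = 0.478). The part of fragments divided between the 2 genes in the ADAT3 value was not tested. The catalytic subunit ADAT2 had 1.53, 1.95 and 1.85 FPKM in shTRMT6 and 1.04, 1.62 and 1.31 FPKM in shControl, which overlap and did not pass (0.26, limma adjusted p = 0.16), and ADAT1, which acts beside the anticodon of alanine tRNA, had a log2 fold change of 0.01.

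The t6A modification next to the anticodon is made from threonylcarbamoyl-AMP, supplied by YRDC, by a complex named KEOPS, in which OSGEP is catalytic. The KEOPS subunits moved in both directions: OSGEP fell, while TPRKB and LAGE3 rose. Of the 5 t6A genes 2 rose and 1 fell, against 19.3% and 16.1% of all genes tested. OSGEP had 11.09, 10.40 and 10.48 FPKM in shTRMT6, against 17.35, 16.23 and 13.84 FPKM in shControl (-0.52, SE 0.11, 1.48-fold lower, limma adjusted p = 0.00329). TPRKB had 13.99, 12.28 and 13.00 FPKM in shTRMT6, against 8.67, 11.01 and 9.68 FPKM in shControl (0.39, SE 0.11, limma adjusted p = 0.019). LAGE3 had 38.53, 33.65 and 34.81 FPKM in shTRMT6, against 32.51, 27.55 and 25.11 FPKM in shControl (0.32, SE 0.11, limma adjusted p = 0.0378). The groups did not overlap in any of these 3 passing genes. Of the 5 t6A genes, 4 did not overlap, against 48.3% of all genes tested. The kinase subunit TP53RK did not pass, at 18.55, 17.48 and 16.75 FPKM in shTRMT6 and 15.09, 15.98 and 14.91 FPKM in shControl (0.19), nor did YRDC (0.19), of which 27.9% of exonic bases lie opposite the exons of C1orf122, a gene that rose (0.69, limma adjusted p = 0.000991). After the GC correction YRDC passed (0.27, adjusted p = 0.0229) and TPRKB did not (0.16, 0.178). The TPRKB call also ended without shTRMT6 replicate 1 (0.0926) or shControl replicate 3 (0.0507), and that of LAGE3 without any library but shControl replicate 1 (0.0576 to 0.162), with median-of-ratios scaling (0.0653), without a variance trend (0.0516) and without a filter (0.0791).

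Wybutosine is a tricyclic base beside the anticodon of phenylalanine tRNA, built in steps after TRMT5. All 4 tested genes had positive log2 fold changes, as had 5603 of all 10592 genes tested. Of the 4, 1 rose, against 19.3% of all genes tested. Their median transcript GC content was 43.0%. Their median log2 fold change was 0.23, against 0.22 over all genes tested under 45% GC. TYW3 had 16.00, 20.43 and 16.13 FPKM in shTRMT6, against 9.81, 14.38 and 12.97 FPKM in shControl (0.48, SE 0.14, 1.41-fold, limma adjusted p = 0.0196). Its opposite-strand neighbour CRYZ, a quinone oxidoreductase gene whose exons lie opposite 5.6% of the exonic bases of TYW3, also rose (0.48, limma adjusted p = 0.00636). TRMT12 (0.23), TYW1 (0.24) and TYW5 (0.17) did not pass. After the GC correction they were at 0.19, 0.16 and -0.07. TYW1 shares 23.7% of its windows with TYW1B, so its fragments may be divided between the 2, and 5.3% of its exonic bases lie opposite exons of SBDS. LCMT2, the methyltransferase of a late step, was listed at 0 in all 6 libraries and was not tested. The TYW3 call ended without shTRMT6 replicate 2 (adjusted p = 0.0907) or shControl replicate 1 (0.0582), after the GC correction (0.0628) and without a filter (0.0812), and TRMT12 passed without shTRMT6 replicate 3 (0.35, 0.0468). Queuosine replaces guanosine at the wobble position, and neither subunit of its transglycosylase passed. The catalytic QTRT1 had 22.45, 21.36 and 21.11 FPKM in shTRMT6 and 24.08, 23.34 and 21.98 FPKM in shControl (-0.09, 95% interval -0.30 to 0.12), and QTRT2 had 8.73, 8.39 and 9.87 FPKM in shTRMT6 and 8.49, 8.42 and 8.28 FPKM in shControl (0.09, -0.15 to 0.32).

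**Figure D3:**
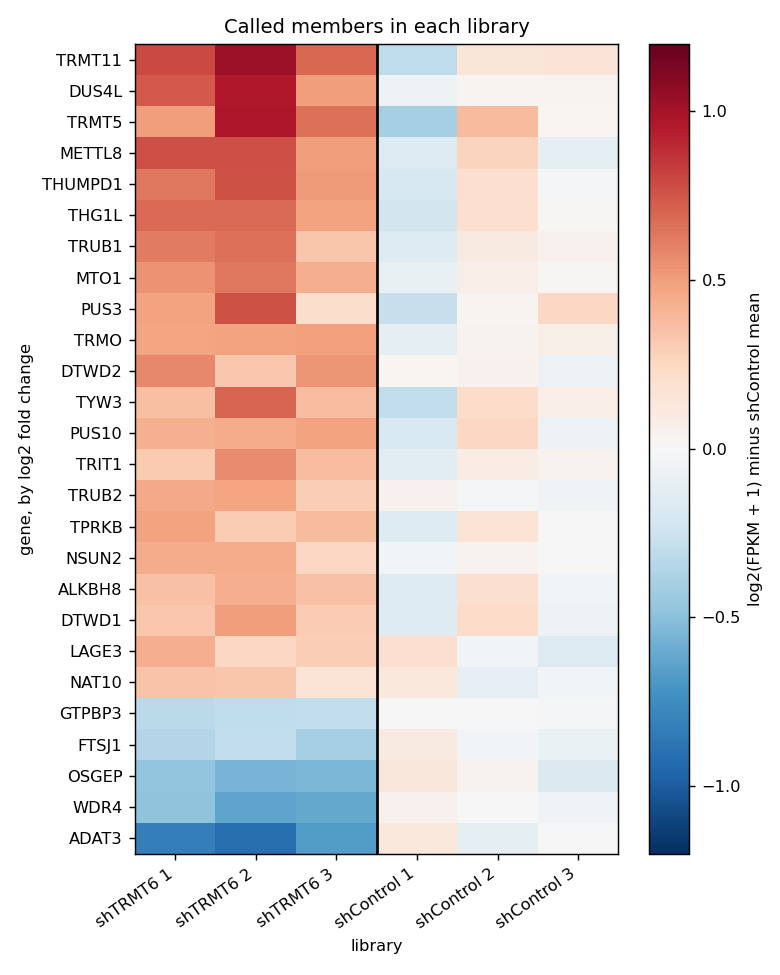
Difference of log2(FPKM + 1) from the shControl mean in each library (columns, shTRMT6 left) for the 26 enzymes that passed (rows, from the highest fold change down). Of the 21 that rose, 17 have their lowest value in shControl replicate 1, the library that stood apart by base composition. The share over all genes that rose was not computed.

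Of the 6 enzymes of mitochondrial tRNA, 2 rose and 1 fell, against 19.3% and 16.1% of all genes tested. METTL8, which places 3-methylcytidine in the anticodon loop of mitochondrial tRNAs, had 15.91, 15.92 and 12.97 FPKM in shTRMT6, against 7.83, 10.90 and 8.17 FPKM in shControl (0.68, SE 0.13, 1.67-fold, limma adjusted p = 0.00203). MTO1 and GTPBP3 together attach the taurinomethyl group to the wobble uridine, and they moved in opposite directions. MTO1 had 14.71, 15.80 and 13.63 FPKM in shTRMT6, against 9.21, 10.43 and 9.91 FPKM in shControl (0.53, SE 0.11, 1.49-fold, limma adjusted p = 0.00235). GTPBP3 had 19.23, 19.57 and 19.69 FPKM in shTRMT6, against 24.49, 24.37 and 24.15 FPKM in shControl, with little spread in either group (-0.31, SE 0.09, 1.25-fold lower, limma adjusted p = 0.0226). TRMU, which thiolates the same uridine, did not move beyond its spread (0.02, 95% interval -0.19 to 0.22), nor did the methylthiolase CDK5RAP1 (-0.10). NSUN3, the cytosine methyltransferase of mitochondrial methionine tRNA, had 2.35, 2.24 and 1.88 FPKM in shTRMT6 and 0.94, 1.90 and 1.48 FPKM in shControl and did not pass (0.39, limma adjusted p = 0.0681), but passed with the replicate block (0.0273) and without shControl replicate 2 (0.52, 0.0183). The GTPBP3 call ended after the GC correction (-0.16, adjusted p = 0.121), without shTRMT6 replicate 1 or 2 (0.093 and 0.0729) and without shControl replicate 2 or 3 (0.0646 and 0.0648).

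In the group of other chemistries, 6 of 7 genes rose, against 19.3% of all genes tested, and the median log2 fold change was 0.42. The groups did not overlap for any of the 7, against 48.3% of all genes tested. The median transcript GC content of the 7 was 43.7%, and 33.2% of all genes tested under 45% GC rose. THUMPD1, the tRNA-binding adaptor of the cytidine acetyltransferase NAT10, had 8.85, 9.78 and 8.05 FPKM in shTRMT6, against 4.55, 6.31 and 5.30 FPKM in shControl (0.64, SE 0.13, 1.65-fold, limma adjusted p = 0.00245). NAT10 itself, which also acetylates ribosomal RNA, changed less, with 50.63, 50.41 and 44.57 FPKM in shTRMT6, against 43.42, 37.08 and 38.88 FPKM in shControl (0.28, SE 0.10, limma adjusted p = 0.0446). THG1L adds the guanosine at the start of histidine tRNA, by which the tRNA is recognised. It had 11.15, 11.10 and 9.59 FPKM in shTRMT6, against 5.48, 7.71 and 6.66 FPKM in shControl (0.62, SE 0.13, 1.60-fold, limma adjusted p = 0.00293). TRIT1, which attaches the isopentenyl group beside the anticodon, had 15.04, 18.13 and 15.71 FPKM in shTRMT6, against 10.78, 12.75 and 12.25 FPKM in shControl (0.42, SE 0.11, limma adjusted p = 0.0118). DTWD1 and DTWD2 attach an aminocarboxypropyl group to uridine in the D-loop. DTWD1 had 11.16, 12.77 and 11.02 FPKM in shTRMT6, against 7.76, 10.31 and 8.28 FPKM in shControl (0.38, SE 0.12, limma adjusted p = 0.0299). DTWD2 had 2.44, 1.88 and 2.32 FPKM in shTRMT6, against 1.34, 1.39 and 1.19 FPKM in shControl (0.48, SE 0.13, 1.69-fold, limma adjusted p = 0.0129). CDKAL1, the methylthiolase of t6A in lysine tRNA, did not pass (0.26, adjusted p = 0.109).

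In the same group, the calls of DTWD1 and DTWD2 ended after the GC correction (adjusted p = 0.231 and 0.303) and without shTRMT6 replicate 1 (0.0665 and 0.066) or shControl replicate 3 (0.0913 and 0.054). That of DTWD1 also ended without shTRMT6 replicate 2 (0.124), without shControl replicate 1 (0.0709) and without a filter (0.0784), and that of TRIT1 without shTRMT6 replicate 2 (0.0683). The NAT10 call ended without shTRMT6 replicate 1 or 2 (0.166 and 0.15), without shControl replicate 2 or 3 (0.159 and 0.113), with median-of-ratios scaling (0.0799), without a variance trend (0.0635) and without a filter (0.0637).

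Because many of these enzymes are pairs, the ratio of the FPKM of partners was formed in each library. The ADAT2/ADAT3 ratio of the wobble deaminase was 0.575, 0.796 and 0.605 in shTRMT6, against 0.172, 0.327 and 0.242 in shControl. The METTL1/WDR4 ratio was 1.34, 1.37 and 1.23 in shTRMT6, against 1.06, 0.949 and 0.981 in shControl, so both mRNAs were near parity in shControl. The GTPBP3/MTO1 ratio was 1.31, 1.24 and 1.44 in shTRMT6, against 2.66, 2.34 and 2.44 in shControl. In each of these 3 ratios 1 partner fell, and the groups did not overlap. In the KEOPS complex the TPRKB/OSGEP ratio was 1.26, 1.18 and 1.24 in shTRMT6, against 0.5, 0.678 and 0.699 in shControl. The other subunits LAGE3 (log2 fold change 0.32) and TP53RK (0.19, which did not pass) were not set against OSGEP. The TRMT11/TRMT112 ratio was 0.0851 ± 0.00834 in shTRMT6 and 0.0459 ± 0.0114 in shControl (SD, n = 3 each), the NAT10/THUMPD1 ratio 5.47 ± 0.289 in shTRMT6 and 7.59 ± 1.85 in shControl, and the QTRT1/QTRT2 ratio 2.42 ± 0.243 in shTRMT6 and 2.75 ± 0.0921 in shControl. The groups did not overlap in any of these 7 ratios, and each gave an exact two-sided permutation p of 0.1 on the log2 ratios, the smallest that 3 libraries against 3 allow. For GTPBP3/MTO1 and TPRKB/OSGEP this was fixed by the single genes, as 1 partner fell and the other rose, each without overlap. It adds nothing to those results. The ratios are of FPKM without the GC correction, and no share over pairs of other genes was computed. After that correction the log2 fold change was 0.06 for QTRT1, -0.08 for QTRT2, 0.34 for NAT10 and 0.41 for THUMPD1. ADAT2 was at 0.02 and ADAT3 at -0.65, METTL1 at -0.07 and WDR4 at -0.44, and GTPBP3 at -0.16 and MTO1 at 0.34. TPRKB was at 0.16 and OSGEP at -0.46, and TRMT11 at 0.58 and TRMT112 at 0.08. FTSJ1 works with THADA and WDR6 as alternative partners, which were named after their values were seen. The FTSJ1/WDR6 ratio was 0.74 ± 0.0184 in shTRMT6 and 0.73 ± 0.0923 in shControl (exact permutation p = 1), as WDR6 was lower too (-0.38, limma adjusted p = 0.0349; 0.0779 without shControl replicate 1 and 0.0539 to 0.103 without any 1 of the shTRMT6 libraries, 0.1 after the GC correction, 0.108 without a filter and 0.0515 without a variance trend). The FTSJ1/THADA ratio was 10.3 ± 1.51 in shTRMT6 and 14.0 ± 3.01 in shControl (exact permutation p = 0.2). In all, 10 ratios were computed, and with a smallest possible p of 0.1 none could pass the threshold of 0.05.

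**Figure D4:**
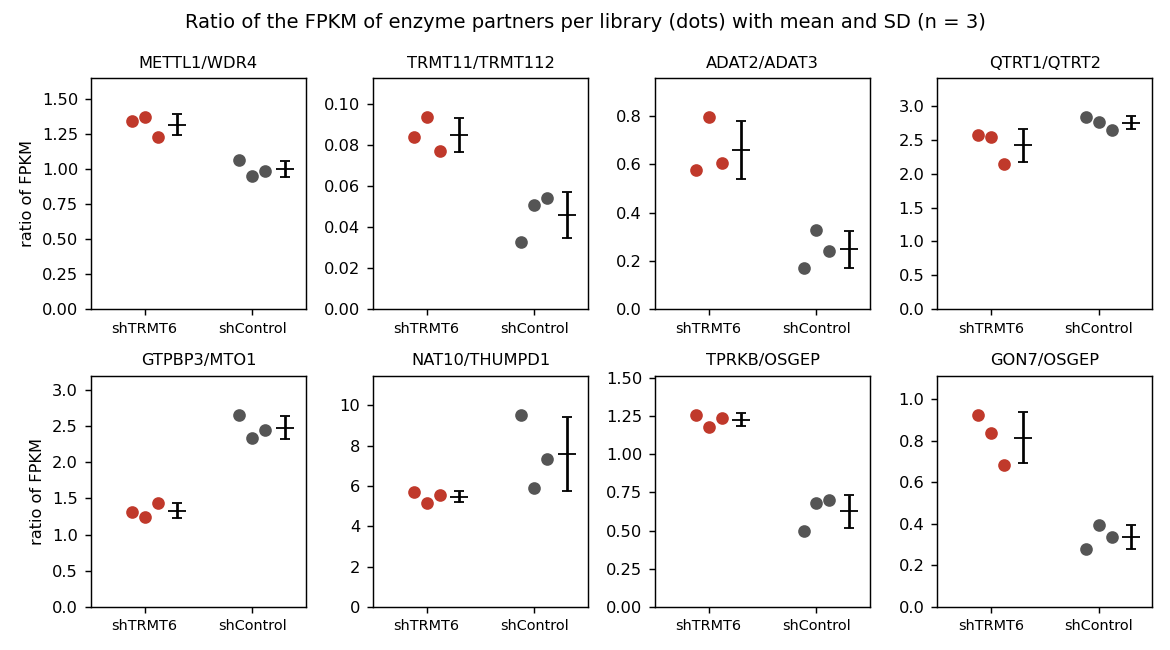
Ratio of the FPKM of enzyme partners in each library (dots; shTRMT6 left, shControl right) with mean and SD (n = 3 each), on axes that start at 0. The groups do not overlap in the 8 ratios drawn, of 10 computed (GON7/OSGEP averages 0.815 in shTRMT6 and 0.335 in shControl). For GTPBP3/MTO1, TPRKB/OSGEP and GON7/OSGEP this was fixed by the single genes, of which 1 rose and 1 fell, each without overlap. TPRKB and GON7 are drawn against OSGEP as subunits of the same complex. FTSJ1/THADA and FTSJ1/WDR6, whose groups overlap, are not drawn.

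The direction of change differed with the base composition of the transcripts. The 21 enzymes that rose had a median transcript GC content of 41.0%, and the 5 that fell 58.2%, against 48.8% over all genes tested. Across the 55 enzymes the correlation of GC content with log2 fold change was -0.64, and across 10573 tested genes it was -0.39; the points share their 6 libraries, and genes are not independent replicates. Of the 27 enzymes under 45% GC, 15 rose (55.6%) and none fell, against 33.2% and 3.98% of all genes tested below that limit, which was chosen after the values were seen. Of the 28 at 45% or more, 6 rose and 5 fell, against 11.4% and 22.9% of all genes tested there. When the smooth GC trend of each library was removed, 17 enzymes were higher and 5 lower, against 19.7% and 19.4% of all genes tested, the median was 0.13, and the correlation was -0.24. TRMT11 (0.58, limma adjusted p = 0.000803), THG1L (0.55, 0.00196) and DUS4L (0.50, 0.00563) were then higher, and ADAT3 (-0.65, 0.000715), OSGEP (-0.46, 0.00314) and WDR4 (-0.44, 0.00147) were lower. With the replicate block added, 19 were higher and 7 lower, against 24.8% and 24.9% of all genes tested. Median-of-ratios scaling and quantile normalization, which leave GC content aside, kept the median at 0.20 and 0.19.

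**Figure D5:**
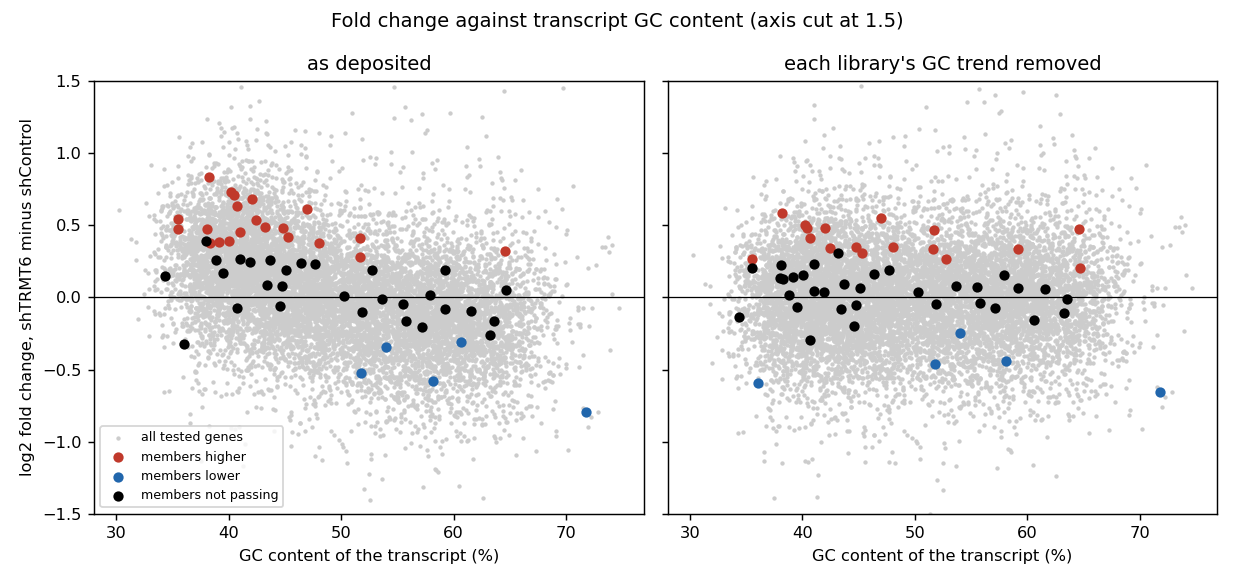
Log2 fold change (shTRMT6 minus shControl) against transcript GC content for all genes tested (grey) and the 55 enzymes (red higher, blue lower, black not passing), as deposited (left) and with the GC trend of each library removed (right); the vertical axis is cut at 1.5. The slope of the grey cloud on the left, with a correlation of -0.39, falls to 0.01 on the right.

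Other genes of tRNA modification and of tRNA processing, listed by function, are given beside these enzymes. Of 18 other modification genes, 16 were tested, 6 rose (37.5%) and 3 fell (18.8%), and the median log2 fold change was 0.13. Of all genes tested, 19.3% rose and 16.1% fell. GON7, the remaining KEOPS subunit, rose to 8.71 ± 1.55 FPKM in shTRMT6, against 5.27 ± 0.947 FPKM in shControl (0.63, SE 0.14, limma adjusted p = 0.00507). The pseudouridine synthase homolog PUS7L rose to 7.96 ± 2.31 FPKM in shTRMT6, against 3.77 ± 0.815 FPKM in shControl (0.89, SE 0.18, limma adjusted p = 0.00247). NFS1, the cysteine desulfurase that supplies sulfur for thiolated tRNA and iron-sulfur clusters, fell to 14.2 ± 0.333 FPKM in shTRMT6, against 27.8 ± 1.02 FPKM in shControl (-0.93, SE 0.10, limma adjusted p = 3.78e-05). TARBP1, a ribose methyltransferase, fell to 2.14 ± 0.0839 FPKM in shTRMT6, against 3.64 ± 0.502 FPKM in shControl (-0.56, SE 0.13, limma adjusted p = 0.00486). Of 28 genes of tRNA processing, splicing and export, 9 rose (32.1%) and none fell, with a median of 0.16. RPP40, a protein subunit of RNase P, which trims the leader of precursor tRNA, rose to 14.5 ± 1.85 FPKM in shTRMT6, against 6.01 ± 0.99 FPKM in shControl (1.14, SE 0.13, limma adjusted p = 7.67e-05). RTRAF, a subunit of the tRNA ligase complex, and TRNT1, which adds the terminal CCA, rose 1.69-fold and 1.68-fold (limma adjusted p = 0.000145 and 0.00144). FAM98A of the same ligase complex rose 1.52-fold (0.62, SE 0.19, limma adjusted p = 0.0214), though its groups overlapped. It had 68.55 FPKM in shControl replicate 3, above 67.9 and 67.06 FPKM in shTRMT6 replicates 1 and 3. The FAM98A call ended without shTRMT6 replicate 2 (0.0803), without shControl replicate 1 (0.0958), after the GC correction (0.0678) and without a filter (0.119).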

How the data were processed

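Total RNA was extracted and enriched mRNA made into libraries with a NEBNext Ultra kit, per the labels' protocols. The deposited table holds the authors' FPKM of each gene in each library. Tools named without roles in the submitters' processing notes are RSEM, HISAT2, StringTie 1.3.1, Bowtie2 2.2.8 and fastp 0.18.0; genome build, annotation and strand setting are not given in the sources used here. Groups and replicate numbers came from the sample titles. Columns headed NC were taken as shControl and those headed SH as shTRMT6, each by its number.

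Count models were not used on FPKM. Genes averaging 1 FPKM or more were tested on log2(FPKM + 1) with limma 3.58.1 (R 4.3.3, trended prior, two-sided, Benjamini-Hochberg, threshold 0.05). Log2 fold changes on this scale understate the change of low genes. Gene symbols were looked up by identifier (20257 of 20289 identifiers), and lengths, GC content, exon overlaps and coordinates from GENCODE release 29 (20171 identifiers); promoters were aligned with Biopython 1.88. Depth was estimated from the steps between low FPKM values and is rough. The GC correction subtracted a lowess curve (span 0.3) of each library's deviation from the mean. Ratios of partners were tested by exact permutation (scipy 1.17.1). The model was tested on simulated data. Every member could be named; from other lists, up to 4 genes that passed with the largest change, and WDR6 and THADA as partners of FTSJ1, outside this rule. The members, classes, lists and alternatives were chosen with earlier results of these data known. Libraries of the same number deviated together from their group means (correlations across genes of 0.206, 0.364 and 0.17, against -0.288 to 0.094 for unlike numbers). These correlations are tied together, as the deviations within a group sum to 0. The numbers were read as possible pairs from the data and not the labels. The main fit had no block, and the fit with this block was an alternative.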

Additional observations from a re-analysis of the deposited data

How the results depend on the processing

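Between 12 and 20 members rose and 3 to 6 fell when each library was left out in turn, against 21 and 5 with all 6; the median log2 fold change of the members ran from 0.16 to 0.25, and the number of all genes that passed from 2407 to 3618, against 3746. The lowest counts came without shTRMT6 replicate 1 or 2. The median was 0.13 after the GC correction, with or without the replicate block. No member that passed changed sign under any of the 16 alternatives.

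With the replicate block 22 members rose and 6 fell, with TRMT2A and NSUN3 added and no other call of a member changed; with the block and the GC correction 19 rose and 7 fell, the calls of ALKBH8, PUS10, TPRKB, GTPBP3, DTWD1 and DTWD2 ended (adjusted p from 0.0551 to 0.269), and NSUN6, TRDMT1, METTL2A, PUS1, DUS3L and YRDC passed. The number of all genes that passed was 4954 with the replicate block and 5269 with the block and the GC correction. Pseudocounts of 0.1 and 0.5 and quantile normalization changed no call of a member; 14 members rose without a filter on low values. With a mean of at least 5 FPKM, 43 members were tested, and none of their calls changed. Precision is limited by 3 libraries a group and, for some members, by few fragments. The lowest estimate in a library was 33 fragments for PUS10, 63 for NSUN3, 72 for ADAT3, 90 for TRDMT1, 91 for TRMT13 and 96 for DUS4L.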

Other observations

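Of the 56 enzymes, 13 had a head-to-head neighbour on the opposite strand, with starts 4 to 536 bases apart. Pairs of genes that overlap far at their starts, such as DUS4L and COG5, were not counted. Of these neighbours, 9 were tested, 2 rose (22.2%, against 19.3% of all genes tested) and none fell. Both that rose are neighbours of an enzyme that fell. WDR4 starts 76 bases from NDUFV3, a subunit gene of respiratory complex I, which had 10.1, 9.5 and 8.41 FPKM in shTRMT6, against 7.11, 6.9 and 6.89 FPKM in shControl (log2 fold change 0.37, SE 0.11, limma adjusted p = 0.0197). OSGEP starts 86 bases from APEX1, the gene of the main abasic-site endonuclease, which had 211.83, 214.99 and 201.01 FPKM in shTRMT6, against 183.94, 165.25 and 161.5 FPKM in shControl (0.30, SE 0.09, limma adjusted p = 0.0211). In both neighbours the groups did not overlap. The neighbour of GTPBP3, ANO8, which starts 91 bases away, did not pass (-0.19, limma adjusted p = 0.268). Of enzymes that rose, NSUN2 has the neighbour SRD5A1, which did not pass (0.05, limma adjusted p = 0.804), and the neighbours of PUS3 and DTWD1, DDX25 and FAM227B, were too low to be tested. ADAL, the head-to-head neighbour of LCMT2, was listed at 0 in all 6 libraries, as LCMT2 was. These neighbours were looked up after the values were seen. Genes with exons opposite those of an enzyme were outside this count. Of these, CRYZ (0.48), DCAF17 (0.47), PEX13 (0.65) and SLC38A6 (0.41) rose beside TYW3, METTL8, PUS10 and TRMT5, which rose too. COQ4 fell (-0.30) beside TRUB2, which rose. EAF1 (0.36), DDX28 (0.38), SBDS (0.88), MAIP1 (0.39) and C1orf122 (0.69) rose beside METTL6, DUS2, TYW1, TYW5 and YRDC, which did not pass. DGCR8 fell (-0.55) beside TRMT2A, which did not pass. The other opposite genes that were tested did not pass, among them COG5 and PLXNA3 beside DUS4L and LAGE3, which rose. Of all genes tested, 19.3% rose and 16.1% fell.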
